A study of Homo sapiens with 6 samples.

Results

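The 10 genes described here encode S100 proteins and were taken by symbol from tables of 51103 genes: S100A2, S100A3, S100A4, S100A6, S100A10, S100A11, S100A13, S100A14, S100A16 and S100P. All 10 passed the filter on low counts, which kept 17617 genes. Messenger RNA had been sequenced from the gastric cancer lines AGS, from a gastric adenocarcinoma, and HGC-27, from an undifferentiated gastric carcinoma. Cells of each line carried a lentivirus for overexpression of NINJ1, a cell-surface protein that ruptures the plasma membrane in lytic cell death, or a negative control. All groups were grown in DMEM with serum and lysed at 48 hours, and polyadenylated RNA was sequenced. The groups were AGS with NINJ1 (2 libraries), AGS control (1 library), HGC-27 with NINJ1 (2 libraries) and HGC-27 control (1 library).

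For the NINJ1 replicate 2 libraries the sample titles and the file names give opposite lines, and the lines used here are those of the file names. Of 13 genes typical of the undisputed AGS libraries, the replicate 2 library filed as AGS held 13 with 10 or more counts and the library filed as HGC-27 held 0. Of 15 genes typical of HGC-27 they held 0 and 15. Total counts ran from 12619684 to 18175697 per library, and the HGC-27 control, the deepest, had a count for 19371 genes against 22839 to 23396 in the other 5. Separate cultures are not mentioned in the labels, and a p-value here reflects the spread among the libraries alone, which may be technical. Each line has 1 control, which the tests assume to vary like the pairs of NINJ1 libraries.

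S100 proteins are small calcium sensors of vertebrates, named for their solubility in saturated ammonium sulphate. Each carries a pair of EF-hands, helix-loop-helix folds that hold calcium, and most work as dimers that expose a binding face for partner proteins once calcium is bound. Most of their genes lie side by side on the long arm of human chromosome 1, and several are studied in carcinomas for links to motility and invasion. Some are also released from cells and bind the receptor RAGE, the product of AGER.

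In GRCh38 with GENCODE release 29, 9 of the 10 genes lie on chromosome 1, all on the minus strand. S100A10 (151982915 to 151994390) and S100A11 (152032506 to 152047907) stand apart from the other 7, which run from S100A6 (153534599 to 153536244) to S100A13 (153618787 to 153631360). S100A3 (153547329 to 153549372) lies within the annotated span of S100A4 (153543613 to 153550136), with 0 exonic bases shared. S100A2 (153561108 to 153567890), S100A16 (153606886 to 153613145) and S100A14 (153614255 to 153616986) come next. S100P is on chromosome 4 (6693069 to 6697170, plus strand). Part of S100A13 is uncertain in these counts: 235 exonic bases, 10.6% of its exonic length, overlap S100A1 on the opposite strand and 536 bases, 24.2%, overlap the noncoding AL162258.1 on its own strand. Whether the counting used strand is not given in the sources used here. S100A6 shares 23 exonic bases, 2.37%, with the antisense gene BX470102.1.

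The promoters of the 3 genes that were lower in the AGS NINJ1-labelled libraries, and of S100P, which was lower in AGS than in HGC-27, are shown so that the changed neighbours can be set side by side. Each runs from 250 bases before to 50 bases after a RefSeq transcript start (GRCh38.p14), 5′ to 3′ on the gene's strand. Capitals mark TATAAA (the TATA box), GGGCGG (the GC box bound by Sp1) and TGANTCA (the AP-1 site), searched on both strands. The windows are chr1:153535942-153536241 for S100A6, chr1:153545757-153546056 for S100A4 and chr1:153549209-153549508 for S100A3, all on the minus strand, and chr4:6693628-6693927 on the plus strand for S100P.
S100A6: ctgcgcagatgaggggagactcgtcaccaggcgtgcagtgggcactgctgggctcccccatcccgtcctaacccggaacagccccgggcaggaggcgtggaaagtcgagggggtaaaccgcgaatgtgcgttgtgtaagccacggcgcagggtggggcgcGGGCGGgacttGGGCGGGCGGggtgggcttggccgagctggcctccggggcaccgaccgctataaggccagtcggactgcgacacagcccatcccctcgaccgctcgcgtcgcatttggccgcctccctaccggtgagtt
S100A4: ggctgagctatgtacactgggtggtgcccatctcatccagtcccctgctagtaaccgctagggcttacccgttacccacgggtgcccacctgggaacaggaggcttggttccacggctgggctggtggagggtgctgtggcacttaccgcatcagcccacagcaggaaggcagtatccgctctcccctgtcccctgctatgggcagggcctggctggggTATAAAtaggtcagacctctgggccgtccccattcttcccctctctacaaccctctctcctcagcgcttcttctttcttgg
S100A3: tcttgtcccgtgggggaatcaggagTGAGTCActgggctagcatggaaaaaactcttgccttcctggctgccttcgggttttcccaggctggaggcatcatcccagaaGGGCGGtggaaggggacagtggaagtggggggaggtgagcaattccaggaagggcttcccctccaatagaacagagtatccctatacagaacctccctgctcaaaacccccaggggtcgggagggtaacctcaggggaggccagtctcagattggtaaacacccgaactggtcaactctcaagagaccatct
S100P: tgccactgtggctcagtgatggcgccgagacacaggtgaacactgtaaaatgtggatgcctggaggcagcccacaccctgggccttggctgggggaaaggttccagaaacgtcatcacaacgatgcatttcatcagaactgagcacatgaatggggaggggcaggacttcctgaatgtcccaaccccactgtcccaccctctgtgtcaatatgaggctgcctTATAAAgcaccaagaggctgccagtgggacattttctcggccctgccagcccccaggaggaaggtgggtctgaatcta

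Among all 35116 RefSeq windows of this length, 11.5% held TATAAA, 45.0% GGGCGG and 7.71% TGANTCA. S100A4 had TATAAA at -31 to -26 from the start and S100P at -28 to -23. S100A6 had GGGCGG 3 times between -90 and -70, with the last pair overlapping. S100A3 had GGGCGG at -142 to -137 and TGANTCA at -225 to -219, and its window lies within the span of S100A4. Over the 14 windows of the 10 genes, 3 held TATAAA (S100A4, S100A13 and S100P), 6 GGGCGG and 2 TGANTCA, the other with TGANTCA being S100A2 at -52 to -46. A match is a description of letters and not of a bound site.

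NINJ1 mRNA itself was counted to check the labels. Its FPKM, a count divided by gene length and library size, was 7.81 and 6.29 in the AGS NINJ1-labelled libraries against 10.9 in the AGS control. In HGC-27 it was 6.88 and 7.53 in the NINJ1-labelled libraries against 1.48 in the control. In AGS the gene named in the label was thus lower in the libraries labelled NINJ1 (log2 change -0.68, SE 0.19, edgeR adjusted p = 0.0148). In HGC-27 it was higher (log2 change 1.89, SE 0.24, edgeR adjusted p = 3.22e-08), both values being without a GC correction. Directions below are therefore those of the libraries so labelled. The tables cannot tell a lentiviral transcript of NINJ1 from the cell's own.

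Of the keratins of simple epithelium, KRT8 lay between 48.6 and 82.8 FPKM, KRT18 between 64.6 and 111 FPKM and KRT7 between 33.0 and 187 FPKM over the 6 libraries, while KRT19 reached at most 0.0339 FPKM and had 0 in 4 libraries. CDH1, the epithelial cadherin, lay between 0 and 0.454 FPKM, and the epithelial regulators ESRP1 (0 to 0.114 FPKM) and GRHL2 (0 to 0.0118 FPKM) were near 0 too. Of the 11 simple epithelium markers, 5 reached 1 FPKM in the HGC-27 control and 7 in each of the other 5 libraries. VIM, the mesenchymal intermediate filament vimentin, lay between 45.4 and 94.3 FPKM. Of the 8 mesenchymal markers, 5 reached 1 FPKM in each library. SPARC reached at most 0.0156 FPKM, and ZEB2 lay between 0.232 and 0.573 FPKM. The 8 leukocyte markers summed to between 0.235 and 1.72 FPKM per library.

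S100A11, a partner of annexin A1 also called calgizzarin, had the highest FPKM of the 10 in every library. It stood at 320 and 346 FPKM in the AGS NINJ1-labelled libraries against 360 in the AGS control, and at 359 and 389 FPKM in the HGC-27 NINJ1-labelled libraries against 185 in the HGC-27 control. By rank among all genes that is place 34 to 43 in 5 libraries and place 119 in the HGC-27 control. S100A11 alone held 32.1% to 47.2% of the summed FPKM of the 10 genes, and the counts of all 10 made up 0.0600% to 0.101% of a library.

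S100A6, S100A16, S100A10 and S100A4 formed the next tier. S100A6, or calcyclin, a partner of the ubiquitin-ligase adaptor CACYBP, lay between 100.0 and 185 FPKM. S100A16, a widely expressed member, lay between 64.9 and 159 FPKM. S100A10, or p11, which has lost calcium binding and forms a complex with annexin A2 at the membrane, lay between 41.1 and 89.6 FPKM. S100A4, or metastasin, which binds nonmuscle myosin IIA, lay between 50.05 and 142 FPKM. S100P, discovered in placenta and a ligand of RAGE, lay between 19.9 and 53.1 FPKM. The other 4 were scarce: S100A2, a gene of squamous epithelium regulated by p63, lay between 1.02 and 8.29 FPKM, and S100A3, known from the hair cuticle, between 1.21 and 9.08 FPKM. S100A14, an epithelial member, lay between 0.948 and 4.01 FPKM, and S100A13, which takes part in the export of FGF1, between 0.717 and 2.81 FPKM. The ranges of neighbouring genes in this order overlapped, except between S100P and the 4 scarce genes.

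**Figure D1:**
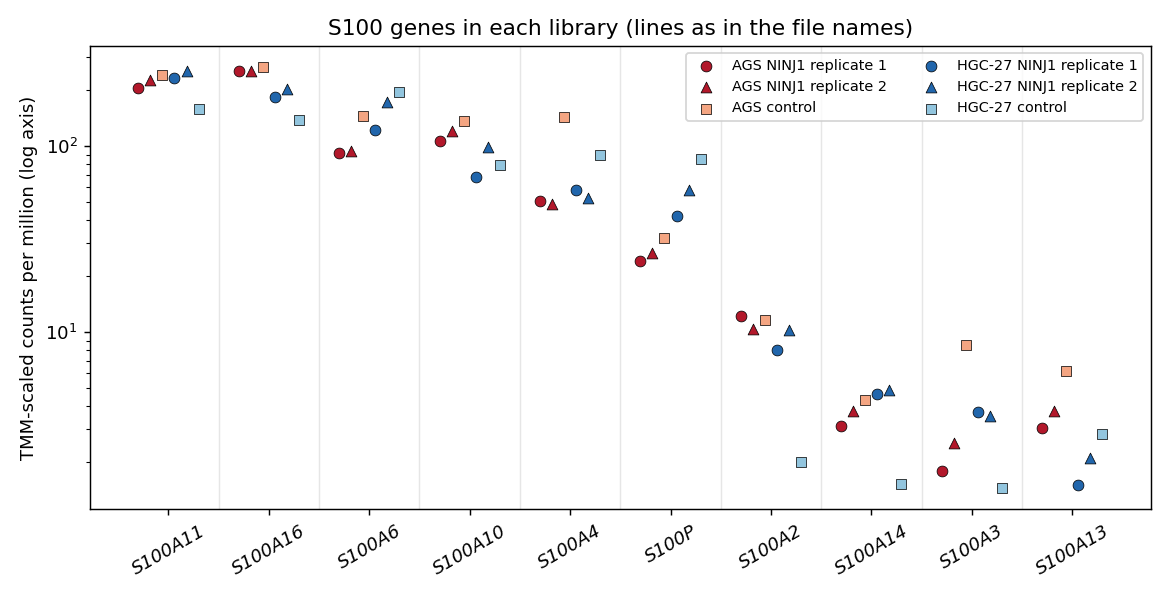
Scaled CPM, the count relative to the TMM-scaled library total (log axis), for the 10 genes, ordered by mean, in each of the 6 libraries. Red marks are AGS and blue marks HGC-27, circles and triangles the NINJ1-labelled replicates 1 and 2, and pale squares the controls. S100A4 and S100A3 stand lower in both AGS NINJ1-labelled libraries than in the AGS control (50.9 and 49.0 against 143 for S100A4), and S100A2, S100A3 and S100A14 are lowest of all in the HGC-27 control, at 2.00, 1.45 and 1.52.

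In AGS, 3 of the 10 genes were lower in the NINJ1-labelled libraries than in the control and 0 were higher by edgeR's quasi-likelihood test (Benjamini-Hochberg adjusted p under 0.05). The genes past that threshold were S100A3, S100A4 and S100A6, and with 2 libraries against 1 the changes were 3.94-fold, 2.86-fold and 1.56-fold lower. Over all tested genes 15.0% were called, 9.3% lower and 5.73% higher. The median log2 change of the 10 was -0.34, against 0.00 over all tested genes.

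Levels below are counts relative to the library total after TMM scaling (scaled CPM), which compare libraries for a gene and not genes with each other. S100A4 had 50.9 and 49.0 scaled CPM in the AGS NINJ1-labelled libraries against 143 in the AGS control (log2 change -1.52, SE 0.14, edgeR adjusted p = 6.21e-10). The replicates lay close together and far below the control. S100A3, its neighbour, had 1.79 and 2.52 scaled CPM against 8.54 in the control (log2 change -1.98, SE 0.34, edgeR adjusted p = 7.77e-05). These came from 24 and 35 counts against 121. S100A6, which lies on the other side of S100A4 beyond S100A5, had 91.5 and 93.7 scaled CPM against 144 in the control (log2 change -0.64, SE 0.15, edgeR adjusted p = 0.00237). All 3 calls held whichever library outside the AGS control was left out, and the call of S100A6 ended with limma on log2(FPKM + 1) (log2 change -0.58, adjusted p = 0.117).

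The other 7 genes did not pass the test in AGS. S100A13 had 3.06 and 3.74 scaled CPM in the NINJ1-labelled libraries against 6.14 in the control (log2 change -0.85, SE 0.35, edgeR adjusted p = 0.0988). S100P had 24.0 and 26.5 scaled CPM against 32.2 (log2 change -0.35, SE 0.18). S100A10 had 106 and 121 scaled CPM against 136 (log2 change -0.27, SE 0.16). In each of these 3, both NINJ1-labelled libraries lay below the control, without the difference passing the threshold. S100A14 (log2 change -0.32, SE 0.35), S100A11 (-0.17, SE 0.13) and S100A16 (-0.07, SE 0.13) also had both libraries below it, while for S100A2 (-0.03, SE 0.24) the control lay between them. Both libraries were thus below the control for 9 of the 10 genes, against 41.5% of all tested genes. The adjusted p of these 7 ran from 0.0988 to 0.956. Without either HGC-27 NINJ1-labelled library, which left 1 pair to give the spread, S100A10 and S100P passed too (edgeR adjusted p from 0.0309 to 0.0402), as did S100A13 without replicate 1 (0.0496).

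**Figure D2:**
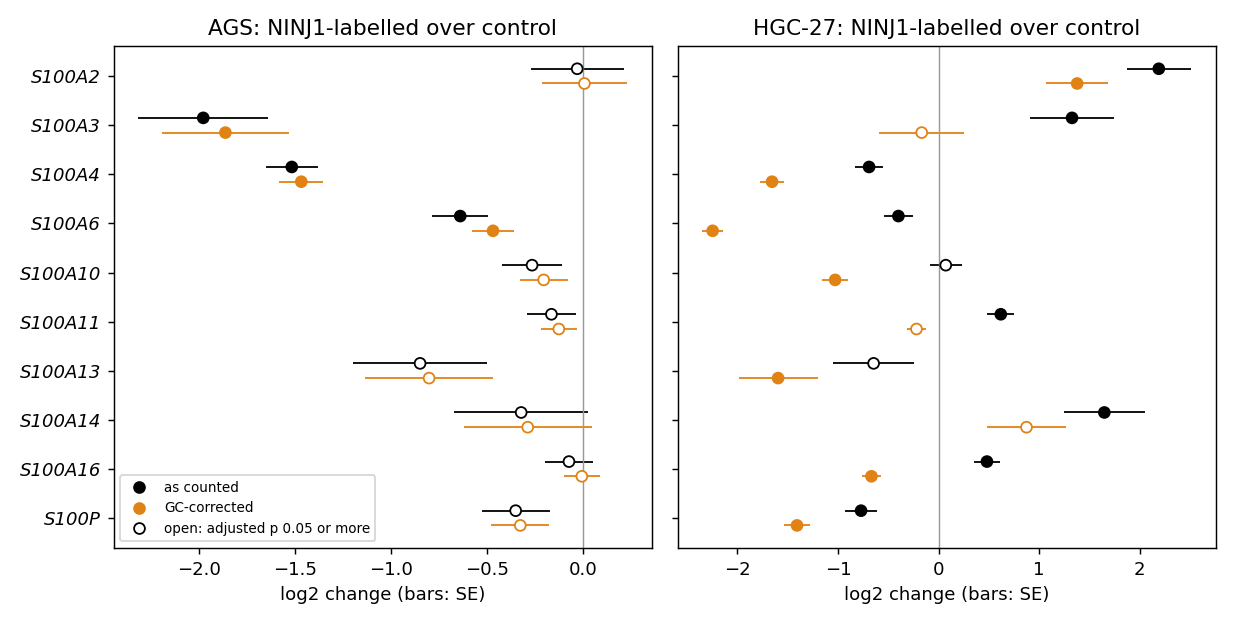
Log2 change of each gene in the NINJ1-labelled libraries over the control in AGS (left) and HGC-27 (right), with bars of 1 SE, as counted (black) and after a correction for GC content (orange), where open circles did not pass an adjusted p of 0.05. In AGS the 2 estimates lie close together, at -1.52 and -1.47 for S100A4, while in HGC-27 they part, at 0.48 and -0.67 for S100A16.

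The same 3 calls stood in AGS after each library was corrected for its dependence on gene GC content (S100A4 log2 change -1.47, S100A3 -1.86, S100A6 -0.47, edgeR adjusted p from 2.80e-09 to 0.00408), where 18.9% of tested genes were called, 8.57% higher and 10.3% lower. Markers of cell types moved in AGS too, here as counted. Of 8 simple epithelium markers tested, 0 were higher and 3 lower, with a median log2 change of -0.38. Of 7 mesenchymal markers tested, 1 was higher and 2 lower, with a median of 0.01. Over all tested genes 5.73% were higher and 9.3% lower. The 8 fibroblast and endothelial markers summed to 3.96 and 3.35 FPKM in the AGS NINJ1-labelled libraries against 11.4 in the AGS control, with 4 of the 5 tested called lower. COL1A1, the collagen I chain, had 374 and 334 counts against 947, and PDGFRB, a receptor of mesenchymal cells, had 70 and 67 counts against 388. LUM had 0 counts in all 3 AGS libraries, and COL1A2 had 0 and 0 against 1. The part of these markers in the S100 changes was not tested. In bulk RNA, fewer cells of a type and less of a transcript per cell cannot be told apart.

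In HGC-27, 8 of the 10 genes passed edgeR's test of NINJ1-labelled against control libraries, 5 higher and 3 lower, but so did 63.0% of all tested genes, 34.0% higher and 29.1% lower. S100A2 was 4.56-fold, S100A14 3.13-fold, S100A3 2.51-fold, S100A11 1.54-fold and S100A16 1.40-fold higher. S100P was 1.71-fold, S100A4 1.61-fold and S100A6 1.32-fold lower. The median log2 change of the 10 was 0.28, against 0.12 over all tested genes.

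S100A2 had 8.04 and 10.2 scaled CPM in the HGC-27 NINJ1-labelled libraries against 2.00 in the HGC-27 control (log2 change 2.19, SE 0.32, edgeR adjusted p = 3.83e-07). S100A14 had 4.64 and 4.90 scaled CPM against 1.52 (log2 change 1.65, SE 0.40, edgeR adjusted p = 0.000603). S100A3 had 3.73 and 3.56 scaled CPM against 1.45 (log2 change 1.33, SE 0.42, edgeR adjusted p = 0.00645). For these 3 the control held 29, 22 and 21 counts, the lowest of any library. S100A11 had 231 and 253 scaled CPM against 158 in the control (log2 change 0.62, SE 0.13, edgeR adjusted p = 0.000136). S100A16 had 184 and 203 scaled CPM against 138 (log2 change 0.48, SE 0.13, edgeR adjusted p = 0.00192). Neither gene's pair of NINJ1-labelled libraries reached down to the control.

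On the lower side, S100P had 42.0 and 57.8 scaled CPM in the HGC-27 NINJ1-labelled libraries against 85.1 in the control (log2 change -0.77, SE 0.16, edgeR adjusted p = 0.000101). S100A4 had 57.9 and 52.8 scaled CPM against 89.3 (log2 change -0.69, SE 0.14, edgeR adjusted p = 5.71e-05). S100A6 had 122 and 172 scaled CPM against 194 (log2 change -0.40, SE 0.15, edgeR adjusted p = 0.0175). The replicates of S100A6 differed more from each other than the higher did from the control, and without HGC-27 NINJ1-labelled replicate 1 its call ended (edgeR adjusted p = 0.124). S100A13 had 1.50 and 2.10 scaled CPM against 2.83 (log2 change -0.65, SE 0.40, edgeR adjusted p = 0.165). S100A10 had 67.9 and 99.1 scaled CPM on either side of the control's 79.5 (log2 change 0.07, SE 0.16, edgeR adjusted p = 0.714). Without replicate 1, S100A10 passed as higher (log2 change 0.31, edgeR adjusted p = 0.0157).

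The control of HGC-27 stood apart from the other 5 libraries in its dependence on GC content, here that of a gene's longest transcript. The median log2 change in HGC-27 was -0.76 among genes under 40% GC, -0.15 from 45% to 50%, 0.56 from 50% to 55%, 1.43 from 55% to 60% and 2.62 at 60% and over. In AGS the same medians were 0.12, 0.05, -0.01, -0.11 and -0.26. The 10 S100 transcripts hold between 52.8% (S100P) and 60.2% (S100A6) GC, in the classes where the median gene was lower in the control.

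**Figure D3:**
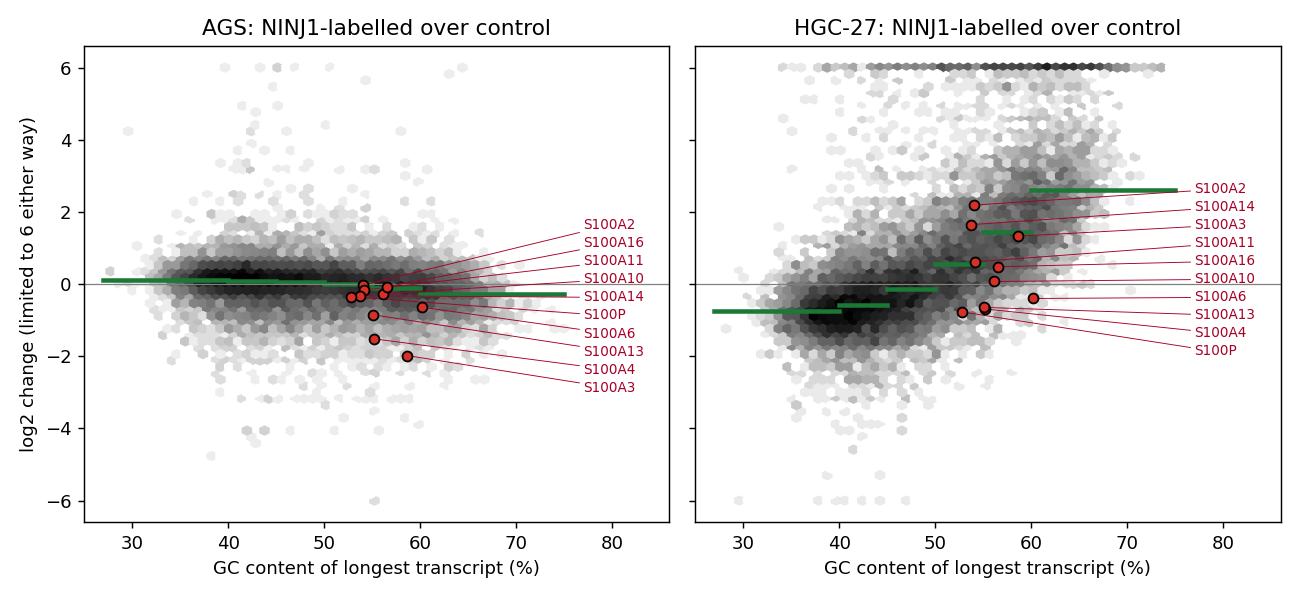
Log2 change of NINJ1-labelled over control libraries against GC content for all tested genes (grey density, darker for more genes; values beyond 6 are drawn at 6) in AGS (left) and HGC-27 (right), with class medians (green lines) and the 10 S100 genes (red). In HGC-27 the medians climb to 2.62 in the class at 60% and over, and S100A6 at 60.2% GC lies at -0.40. In AGS S100A4 and S100A3 lie below the class medians.

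Corrected for GC content, the HGC-27 comparison gave 1 gene higher and 6 lower, against 24.1% and 24.9% of all tested genes (48.9% in all). S100A2 stayed higher, at 7.71 and 8.99 GC-corrected CPM in the NINJ1-labelled libraries against 3.38 in the control (log2 change 1.38, SE 0.31, edgeR adjusted p = 0.000634). S100A4 had 54.1 and 44.9 GC-corrected CPM against 156 (log2 change -1.65, SE 0.12, edgeR adjusted p = 3.32e-11). S100P had 40.3 and 51.5 against 122 (log2 change -1.41, SE 0.13, edgeR adjusted p = 4.76e-09). NINJ1 came to a log2 change of 0.65 (edgeR adjusted p = 0.0185). S100A2, S100A4, S100A6 and S100P kept their direction and their call.

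S100A6 had 104 and 129 GC-corrected CPM against 554 (log2 change -2.25, SE 0.11, edgeR adjusted p = 4.12e-14), where the uncorrected control value was 194 scaled CPM. S100A16 changed sign and passed as lower (log2 change -0.67, SE 0.09, edgeR adjusted p = 2.22e-06). S100A10 (-1.03, SE 0.13, edgeR adjusted p = 3.48e-07) and S100A13 (-1.59, SE 0.39, edgeR adjusted p = 0.00165) became calls. The calls of S100A11 (-0.22, edgeR adjusted p = 0.0610), S100A3 (-0.17, 0.768) and S100A14 (0.87, 0.0676) ended. Corrected for GC content and transcript length together, 3 genes were higher and 6 lower, against 24.6% and 24.5% of all tested genes (49.1% in all). There S100A11 (0.26, edgeR adjusted p = 0.0355) and S100A14 (1.05, 0.0292) passed as higher, S100A16 (-0.45, 0.000410) passed as lower, and S100A3 (0.19, 0.743) did not pass. With limma on log2(FPKM + 1) the split was 5 higher and 0 lower, over 5961 higher and 2470 lower genes.

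Marker lists moved in HGC-27 as well. Of 7 mesenchymal markers tested, 1 was higher and 6 lower in the NINJ1-labelled libraries, with a median log2 change of -0.90, and the 8 on the list summed to 74.99 and 66.8 FPKM against 117 in the control. After the GC correction 1 was higher and 3 lower, with a median of -0.18. Of 8 simple epithelium markers tested, 4 were higher and 4 lower, or 2 and 5 after the GC correction. The list summed to 332 and 355 FPKM against 267, with KRT7 at 187 and 186 FPKM against 59.3. KRT8 (53.7 and 61.4 FPKM against 82.8) and KRT18 (64.6 and 79.4 FPKM against 111) were lower. Of 5 fibroblast and endothelial markers tested, 1 was higher and 2 lower, and the list summed to 5.54 and 5.92 FPKM against 1.54. COL1A1 made up most of these sums, at 5.36 and 5.71 FPKM against 0.812. DCN had 4 and 5 counts against 38, and PECAM1 had 8 and 6 against 40. After the GC correction 0 of the 5 were higher and 3 lower, with a median log2 change of -2.39. The part of these markers in the S100 changes of HGC-27 was not tested.

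The change in AGS minus the change in HGC-27 was tested in the same fit. It passed for 6 of the 10 genes by edgeR, all 6 with a negative difference. Over all tested genes 54.2% passed, 23.9% with a positive and 30.2% with a negative difference. The log2 differences were -3.31 for S100A3 (SE 0.54, edgeR adjusted p = 3.74e-06), -2.22 for S100A2 (SE 0.40, 2.00e-05) and -1.97 for S100A14 (SE 0.53, 0.00213). They were -0.83 for S100A4 (SE 0.20, 0.000677), -0.78 for S100A11 (SE 0.18, 0.000493) and -0.55 for S100A16 (SE 0.18, 0.0101). S100A16 lost its call without either AGS NINJ1-labelled library (edgeR adjusted p = 0.0779 and 0.0692). S100P (0.42, SE 0.24), S100A10 (-0.34, SE 0.22), S100A6 (-0.24, SE 0.21) and S100A13 (-0.20, SE 0.54) did not pass.

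After the GC correction 4 genes were called higher and 2 lower in this difference, against 17.7% and 17.3% of all tested genes (35.1% in all). S100A3 (-1.70, edgeR adjusted p = 0.0149) and S100A2 (-1.37, edgeR adjusted p = 0.00685) kept their side. S100A6 (1.78), S100P (1.08), S100A10 (0.82) and S100A16 (0.66) passed on the other side (edgeR adjusted p from 7.67e-09 to 0.000908). S100A14 (-1.16, SE 0.51) and S100A11 (0.09, SE 0.14) lost their calls. S100A4 no longer differed beyond the threshold (0.19, SE 0.17, edgeR adjusted p = 0.417), its own log2 changes being -1.47 in AGS and -1.65 in HGC-27. Of these neighbours, S100A3 did not pass in HGC-27 after the correction, and by edgeR S100A4 was lower there with and without it.

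**Figure D4:**
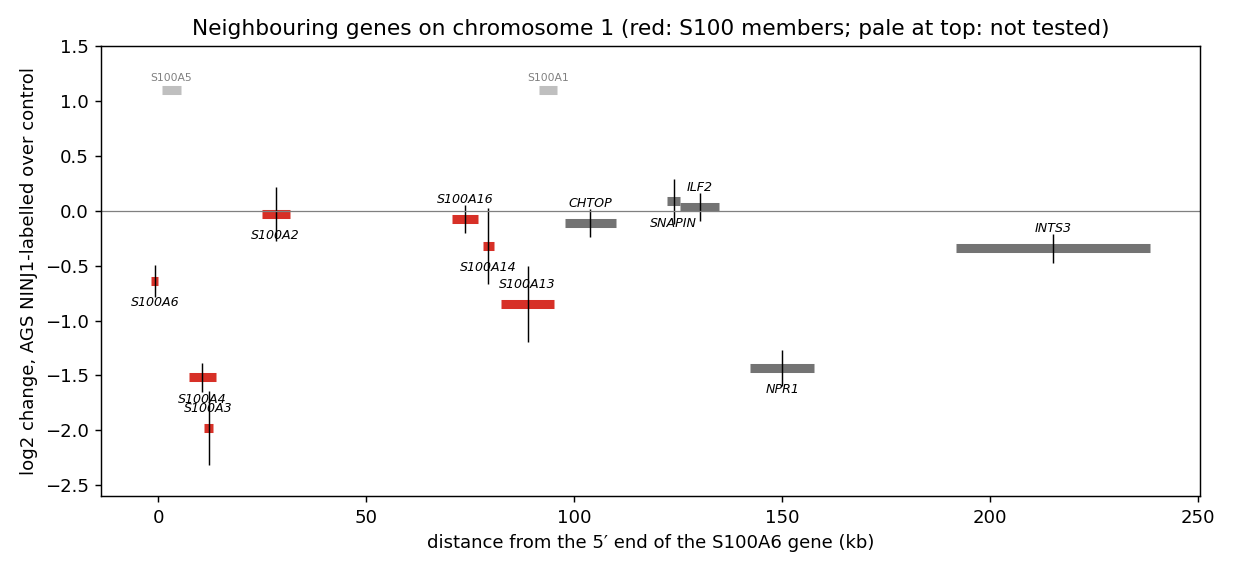
Position of protein-coding genes from S100A6 onward on chromosome 1, as distance from the 5′ end of S100A6, against their log2 change in the AGS NINJ1-labelled libraries over the AGS control (vertical bars, 1 SE; red, the S100 genes described; grey at the top, genes that were not tested). S100A6, S100A4 and S100A3 lie below -0.6, S100A2 and S100A16 near 0, S100A13 at -0.85 without passing the threshold, and NPR1 at -1.43.

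The AGS and HGC-27 lines were compared in the NINJ1-labelled libraries, 2 against 2, which share those libraries with the comparisons above. By edgeR 3 genes were higher in AGS (S100A13, S100A10 and S100A16) and 2 lower (S100P and S100A6), against 40.2% of all tested genes, 20.2% higher and 20.0% lower. For all 10 genes the 2 libraries of one line lay on one side of the 2 of the other in scaled CPM, also where the test was not passed, and so they did for 69.2% of all tested genes.

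S100P had 24.0 and 26.5 scaled CPM in AGS against 42.0 and 57.8 in HGC-27 (log2 difference -0.98, SE 0.14, edgeR adjusted p = 1.00e-06). S100A6 had 91.5 and 93.7 scaled CPM against 122 and 172 (log2 difference -0.67, SE 0.12, edgeR adjusted p = 3.77e-05). Both calls held with each library left out in turn. S100A10 had 106 and 121 scaled CPM in AGS against 67.9 and 99.1 in HGC-27 (log2 difference 0.44, SE 0.13, edgeR adjusted p = 0.00659). S100A16 had 252 and 254 scaled CPM against 184 and 203 (log2 difference 0.39, SE 0.10, edgeR adjusted p = 0.00309). S100A13 had 3.06 and 3.74 scaled CPM against 1.50 and 2.10 (log2 difference 0.91, SE 0.33, edgeR adjusted p = 0.0264). Each of these 3 higher calls ended without AGS NINJ1-labelled replicate 2 (edgeR adjusted p from 0.0802 to 0.181). The calls of S100A10 and S100A13 also ended without HGC-27 NINJ1-labelled replicate 1 (0.106 and 0.146), without which S100A11 became a call (-0.23, 0.0236), and that of S100A16 ended without AGS NINJ1-labelled replicate 1 (0.0690).

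Not past the threshold between the lines were S100A3 (-0.75, SE 0.31, edgeR adjusted p = 0.0539), S100A14 (-0.47, SE 0.28), S100A2 (0.31, SE 0.20), S100A11 (-0.17, SE 0.11) and S100A4 (-0.15, SE 0.12). S100A4 had 50.9 and 49.0 scaled CPM in AGS against 57.9 and 52.8 in HGC-27, so the libraries of the lines nearly met. The GC correction left the same 5 calls, with log2 differences of -0.94 for S100P, -0.57 for S100A6, 0.48 for S100A10, 0.42 for S100A16 and 0.95 for S100A13. It called 43.8% of all tested genes, 21.9% higher and 21.9% lower.

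**Figure D5:**
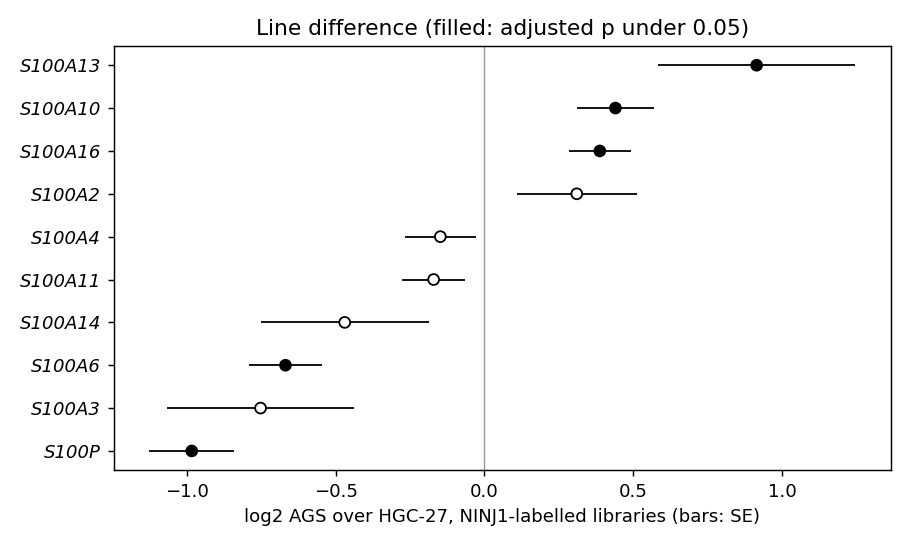
Log2 difference of AGS over HGC-27 in the NINJ1-labelled libraries for the 10 genes, with bars of 1 SE, where filled points passed an adjusted p of 0.05. S100A13, S100A10 and S100A16 lie to the right, S100P (-0.98) and S100A6 (-0.67) to the left.

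Under the lines of the titles, each NINJ1 group holds 1 library of each file-name line, and no S100 gene was called in any of the 4 comparisons. Of all 17617 tested genes, 0 were called in AGS, in the difference and between the lines, and 2149 in HGC-27. At an unadjusted p under 0.05 edgeR then had 2 of the 10 in AGS, 2 in HGC-27, 2 in the difference and 0 between the lines. Over all tested genes it had 595, 6040, 4459 and 19, in the same order. For S100A4 in AGS the log2 change was -1.47 under the titles, and for S100A3 it was -1.67 (edgeR adjusted p = 0.884 for both). For S100A6 it was -0.13 (SE 0.44), against -0.64 with the file-name lines.

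Partners and receptors of S100 proteins numbered 20, of which 18 were tested. In AGS 2 were higher and 2 lower in the NINJ1-labelled libraries, where 5.73% and 9.3% of all tested genes were. CACYBP, the binding protein of S100A6, had 55.0 and 58.2 FPKM against 34.5 in the control (log2 change 0.66, edgeR adjusted p = 0.000500). SUGT1, a co-chaperone that also binds S100A6, had 5.57 and 5.91 FPKM against 3.28 (log2 change 0.75, edgeR adjusted p = 0.000342). In AGS both were higher in the libraries where S100A6 was lower, which was not so in HGC-27. Among the lower genes BSG, or basigin, had 178 and 169 FPKM against 214 (log2 change -0.35, edgeR adjusted p = 0.0455). With the GC correction 3 were higher and 1 lower, and BSG did not pass (-0.12, edgeR adjusted p = 0.443). In HGC-27, 4 of the 18 were higher and 7 lower, against 63.0% called over all tested genes, led by the scaffold gene IQGAP1 (log2 change -1.83, edgeR adjusted p = 9.94e-15) and BSG (2.10, 1.31e-14). CACYBP (-0.78, 1.60e-06) and SUGT1 (-0.74, 1.07e-05), both picked after their values were seen, were lower there. So was S100A6 (log2 change -0.40, or -2.25 after the GC correction). After the GC correction 4 were higher and 6 lower, IQGAP1 stayed a call (-1.32, edgeR adjusted p = 2.20e-11), and BSG (-0.09), CACYBP (-0.03) and SUGT1 (0.00467) did not pass. Between the lines 3 were higher and 3 lower in AGS, against 40.2% called over all tested genes.

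The annexin partners were set against their S100 genes on FPKM, per length and without a GC correction. ANXA2 over S100A10 was 1.09 and 1.12 in the AGS NINJ1-labelled libraries against 0.778 in the control, and 1.46 and 1.16 in the HGC-27 NINJ1-labelled libraries against 1.99 in the control. ANXA1 over S100A11 was 0.244 and 0.220 in the AGS NINJ1-labelled libraries against 0.174 in the control, and 0.274 and 0.247 in the HGC-27 NINJ1-labelled libraries against 0.432 in the control. Both ratios thus lay above the control in AGS and below it in HGC-27, and neither annexin passed the test in AGS. AGER, which encodes RAGE, was scarce, at 1.68 and 1.34 FPKM against 2.42 in AGS and 1.70 and 2.14 FPKM against 0.132 in HGC-27. These values, also without a GC correction, came from 44 and 37 counts against 70 in AGS and 51 and 67 against 5 in HGC-27.

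Of 34 other EF-hand genes, 32 were tested. In AGS 2 were higher and 4 lower, against 15.0% called over all tested genes. The calpain subunit CAPN2 was higher (log2 change 0.49, edgeR adjusted p = 0.00748). Lower were RCN1 of the secretory pathway (-0.81, edgeR adjusted p = 0.000219), the troponin C gene TNNC1 (-1.81, 0.000511) and the mitochondrial EFHD1 (-0.76, 0.00263). The median log2 change of the 32 was -0.05. In HGC-27, 9 were higher and 13 lower, against 34.0% and 29.1% of all tested genes. After the GC correction 4 were higher and 16 lower, against 24.1% and 24.9%.

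Of 50 protein-coding genes within 500 kb of the chromosome 1 members, 25 were tested. In AGS 0 were higher and 3 lower, against 15.0% called over all tested genes, and their median log2 change was 0.08. Among the lower genes were NPR1, the receptor of atrial natriuretic peptide (log2 change -1.43, edgeR adjusted p = 6.53e-08), and SLC27A3, of the fatty acid transport family (-0.70, 0.0282). With the GC correction 3 were higher and 3 lower, with a median of 0.15. In HGC-27, 10 were higher and 6 lower, against 63.0% called over all tested genes.

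The other 11 S100 genes in the tables, among them the inflammatory S100A8, S100A9 and S100A12, the psoriasin gene S100A7 and the glial S100B, were close to absent. Together they had 8 and 15 counts in the AGS NINJ1-labelled libraries against 12 in the control, and 10 and 13 against 6 in HGC-27, and 0 of them were tested. S100A8, S100A12, S100A7 and S100B had 0 counts in all 6 libraries, and a count of 0 allows up to 3 in a library of this depth, for counting error alone.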

How the data were processed

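Per the labels' protocols, cells were lysed in Trizol at 48 hours and libraries were made with a NEBNext Ultra kit. The submitters' processing notes name HISAT2 and HTSeq 0.13.5, with GRCh38 as the build. The annotation release and the strand setting are not given in the sources used here. The deposited tables hold a whole-number read count and an FPKM value per gene and library, per the file headers. Among genes of 200 or more counts, the authors' FPKM could be rebuilt from the count, 1 length per gene and the library total with a relative error no larger than 5.72e-09.

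Counts of all 6 libraries were fitted with edgeR 4.0.16 (R 4.3.3) in 1 model with a mean for each of the 4 groups of line and treatment. The filterByExpr minimum was 10 counts and libraries were scaled by TMM. Two-sided quasi-likelihood F tests were adjusted by Benjamini-Hochberg over 17617 genes, with a threshold of 0.05. The SE is the log2 change divided by the square root of F. Scaled CPM is the count relative to the TMM-scaled library total. The GC correction took offsets from a spline of each library's log2 CPM on the GC content of the longest transcript in GENCODE release 29. The edgeR fit was tested on simulated counts, without and with the GC correction, and the other alternatives below were not. Alternatives were lines as in the titles, DESeq2 1.42.0, its size factors, no filter, GC and GC with length corrections, limma 3.58.1 on log2(FPKM + 1), each library left out, replicate number as a block, and, between lines, all 6 libraries with treatment as a term. For limma, 2 or more libraries had to reach an FPKM of 1.

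All 10 genes are named in each comparison. From each other list up to 4 genes past the threshold with the smallest p could be named, and others are marked or given as checks of the labels. Some genes counted in these lists are not reported here by name. The members and lists were chosen with earlier results of these data known. Identity between the proteins was planned and not computed, since no protein sequences were used here. Promoter windows came from RefSeq (GRCh38.p14), where all 10 genes matched by symbol. Counting error for a gene of 21 counts is large beside that of a gene of 3976 counts, and the scarce genes carry the largest SE.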

Additional observations from a re-analysis of the deposited data

Results flagged for a closer look

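For 6 of the 10 genes the change in the NINJ1-labelled libraries over the control differed between AGS and HGC-27 by the test of that difference (edgeR, adjusted p under 0.05; AGS minus HGC-27, 2 NINJ1-labelled libraries and 1 control per line), against 54.2% of all tested genes. After a correction for GC content it passed for 6, of which 4 had a positive and 2 a negative difference, against 35.1%. The difference was positive for S100A6, S100P, S100A10 and S100A16 and negative for S100A3 and S100A2, only part of the first 6. None of the 4 with a positive difference had risen in AGS. Their GC-corrected log2 changes ran from -0.47 to -0.01 in AGS and from -2.25 to -0.67 in HGC-27. The values that follow are for the first 6. The log2 difference was -3.31 for S100A3, -2.22 for S100A2, -1.97 for S100A14, -0.83 for S100A4, -0.78 for S100A11 and -0.55 for S100A16. Corrected for GC content it was -1.70 for S100A3, -1.37 for S100A2, -1.16 for S100A14, 0.19 for S100A4, 0.09 for S100A11 and 0.66 for S100A16. There S100A14, S100A4 and S100A11 did not pass. With GC content and transcript length corrected together it was -2.005 for S100A3, -1.61 for S100A2, -1.33 for S100A14 (edgeR adjusted p = 0.0480), -0.15 for S100A4, -0.31 for S100A11 and 0.46 for S100A16. NINJ1 mRNA itself, without a GC correction, was lower in the AGS libraries labelled with it.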

How the results depend on the processing

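Under the lines of the titles, genes called by edgeR were 0 between lines, 0 in AGS, 2149 in HGC-27 and 0 in the difference, against 7084, 2648, 11103 and 9547 with the file-name lines. At an unadjusted p under 0.05 they were 19, 595, 6040 and 4459, and S100 genes called were 0 in each, against 5, 3, 8 and 6. Signs turned between lines for S100A6 (0.29), S100A11 (0.00441), S100A13 (-0.0234) and S100P (0.26), in AGS for S100P (0.35) and in the difference for S100A6 (0.72).

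DESeq2 called 4687 genes between lines and 1266 in AGS. With it S100A13 between lines, S100A3 in HGC-27 and S100A14 in the difference lost their calls (adjusted p = 0.260, 0.111 and 0.0712). Limma on FPKM called 950 genes in AGS and 5 S100 genes in HGC-27, and gave 0.0174 for S100A2 in AGS. With all 6 libraries and treatment as a term, 1082 genes and 1 S100 gene were called between lines, and S100A3 (0.27), S100A4 (0.13), S100A11 (0.0890) and S100A14 (0.15) turned.

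The GC correction called 6178 genes in the difference, and 6146 with length added. In AGS it gave 0.00684 for S100A2, and with length 0.0332 for S100A2 and 0.0102 for S100A16. In HGC-27 it turned S100A3 (-0.17), S100A10 (-1.03), S100A11 (-0.22) and S100A16 (-0.67), and with length S100A10 (-0.83) and S100A16 (-0.45). In the difference it turned S100A4 (0.19), S100A6 (1.78), S100A10 (0.82), S100A11 (0.0929), S100A13 (0.79) and S100A16 (0.66), and with length S100A6 (1.40), S100A10 (0.64), S100A13 (0.87) and S100A16 (0.46).

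Leaving out each library in turn gave 4724 to 7815 genes and 2 to 5 S100 genes between lines, 935 to 4712 and 3 to 6 in AGS, 10704 to 11321 and 8 in HGC-27, and 8417 to 10372 and 5 to 8 in the difference. S100A2 in AGS turned (-0.15 to 0.0801 over the libraries left out), as did S100A10 in HGC-27 (-0.24 to 0.31) and S100A6 (-0.46 to 0.0400) and S100A13 (-0.41 to 0.0685) in the difference. Where an arm had 1 library left, it was assumed to vary like the others.

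Same-numbered NINJ1 libraries deviated together with r = 0.07 over 11302 genes, or 0.11 after the GC correction, and with 2 pairs and no label of a shared day the samples share only a number. With the replicate block, 5 S100 genes were called in AGS, S100A10 (-0.45) and S100P (-0.51) being added, and 5 with the GC correction too. The block gave -0.13 for S100A10 in HGC-27. Block and GC correction together gave 0.0163 for S100A2 in AGS, and in HGC-27 -0.20 for S100A3, -1.18 for S100A10, -0.25 for S100A11 and -0.66 for S100A16. In the difference they gave 0.19 for S100A4, 1.78 for S100A6, 0.83 for S100A10, 0.0920 for S100A11, 0.80 for S100A13 and 0.66 for S100A16. The cause of these turns was not tested.

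Of all values for single genes under an alternative, 134, 120, 108 and 92 kept direction and side of the threshold between lines, in AGS, in HGC-27 and in the difference, and 8, 7, 12 and 19 turned sign. Depth limits S100A3, S100A13 and S100A14 most, with as few as 21, 23 and 22 counts in a library.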
